A study of Homo sapiens with 6 samples.

Results

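RPL10, RPLP1 and RPS18 code for proteins of the cytosolic ribosome, and their mRNA levels were measured in A549 cells with and without exposure to aluminum oxide nanoparticles (Al2O3 NPs). On 3 control and 3 exposed arrays the group means of these genes differed by -2.0% to 1.6%, none of them passed the test, and the 95% confidence intervals reached from 13.0% below to 14.1% above the control level. They are the 3 genes of a list of 79 cytosolic ribosomal protein genes that could be identified on the array, because only 20 of its 58965 probes carry a RefSeq accession. None of 8 listed ribosomal protein paralogs was among these 20 probes. The members were taken by their probe identifiers, a rule that uses no measured value, although earlier results of these data were known when they were picked.

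The ribosome is built of a small subunit, which reads the mRNA, and a large subunit, which joins amino acids into protein. RPS18 belongs to the small subunit. RPL10 is a late-joining protein of the large subunit, and RPLP1 is an acidic phosphoprotein of the stalk by which the large subunit recruits elongation factors. Ribosomal protein mRNAs are abundant in dividing cells and are commonly used as reference transcripts. Many of them begin with a run of C and T, the terminal oligopyrimidine tract, through which their translation responds to nutrients and growth signals. The arrays measure mRNA level only and hold no readout of translation.

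A549 is an established line of human lung adenocarcinoma cells. Total RNA was hybridised to one-colour Agilent arrays in 2 groups of 3, cells labelled wild type (control) and cells labelled as treated with Al2O3 nanoparticles (Al2O3 NPs). The labels give neither dose, exposure time, vehicle nor whether the 3 samples of a group came from separate cultures, so that p-values measure only the spread between these samples, which may be technical. They name Cy3 and mRNA, while their labelling protocol is that of a miRNA kit with another dye. No marker of the A549 line could be checked by name. All values are relative to the rest of the same array, so fewer cells and less RNA per cell cannot be told apart here, and neither can a shift shared by all transcripts.

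The starts of the 3 genes are shown because the pyrimidine tract is the feature by which these mRNAs are known. Each window is read 5′ to 3′ from the plus strand of GRCh38.p14 (RefSeq), covers 10 bases before and 20 bases from an annotated start, and has its longest unbroken run of C and T in capitals.
RPS18 (chr6:33272065-33272094): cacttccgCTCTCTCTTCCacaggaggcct
RPLP1 (chr15:69452808-69452837): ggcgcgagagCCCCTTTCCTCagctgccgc
RPL10 (chrX:154398367-154398396): ggaggagcgCCTCTTTCCCTTCggtgtggt

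The run was 11 bases long in RPS18 and RPLP1 and 13 in the RPL10 window shown. Its first base was at -2 in RPS18, -1 in RPL10 and 1 in RPLP1, where 1 is the annotated start. The runs of RPS18 and RPL10 thus begin before the annotated transcript. RPL10 has 2 further annotated starts, whose windows hold runs of 5 and 4 bases. Of all 35116 windows of this length, 12.7% hold a run of at least 8 bases, against 73.1% of the 78 windows found for 63 of the listed ribosomal protein genes. The limit of 8 was chosen with these windows in view, and the shares are a description with no test. The probes themselves were designed on hg19, and their sequences were not used here, so the transcript, the exon or the related pseudogene copies a probe can bind were not analysed here.

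Each of the 3 probes was printed as 10 spots scattered over the array. All 180 spots were well above background and none was saturated. Feature Extraction flagged 6 of the spots as outliers, 2 of RPL10 and 4 of RPLP1, and these were left out. The 6 arrays share 1 scan image, in which the 3 control arrays and Al2O3 NPs replicate 1 form the upper row and Al2O3 NPs replicates 2 and 3 the lower row. Row and group are therefore partly confounded, and only replicate 1 of the exposed group can be compared with controls of its own row.

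RPS18 did not pass the test. Its mean intensity on replicates 1, 2 and 3 was 225142, 231528 and 218925 in control cells, and 221618, 236090 and 219877 after exposure. Relative to the 75th percentile of the array these are log2 levels of 9.98, 9.94 and 9.95 in control cells and 9.83, 9.998 and 9.95 in Al2O3 NPs-treated cells. On this scale Al2O3 NPs replicate 1 was below all controls, replicate 2 was above them and replicate 3 lay within their range, so that the groups overlapped. The unscaled intensity of replicate 1 lay within the control range. The mean level was 9.96 ± 0.020 (SD, n = 3) in controls and 9.93 ± 0.089 (SD, n = 3) in exposed cells. The log2 fold change was -0.030 (standard error 0.071, 95% confidence interval -0.20 to 0.14, limma adjusted p = 0.801), and its sign turned with quantile normalization, with scaling to the median and without scaling.

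RPLP1 gave a similar picture. Its mean intensity was 237053, 245183 and 234184 in control cells, and 240964, 261255 and 238209 in exposed cells. The log2 levels were 10.05, 10.02 and 10.05 in controls and 9.95, 10.14 and 10.07 in exposed cells. Replicate 1 of the exposed group again fell below the controls, and the other two lay above them. With means of 10.04 ± 0.015 (SD, n = 3) and 10.05 ± 0.099 (SD, n = 3), the log2 fold change was 0.013 (standard error 0.073, 95% confidence interval -0.16 to 0.19, limma adjusted p = 0.918). The sign turned with outlier spots kept (-0.0071), with the percentile that Feature Extraction wrote (-0.0023) and with centring within regions of the array over its own spots (-0.14, but 0.033 over the same spots on all arrays).

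RPL10 did not pass the test either. Its mean intensity was 312, 323 and 318 in control cells, and 336, 342 and 314 in exposed cells, over a local background of 30 to 32.5. Its dimmest spot was still at least 4.88 times as bright as the brightest negative control spot of the same array. The log2 levels were 0.49, 0.45 and 0.52 in controls and 0.46, 0.57 and 0.50 in exposed cells. On the scaled values, replicate 2 of the exposed group was above all controls, and replicates 1 and 3 lay within the control range. Unscaled, replicate 1 was above the controls too. The means were 0.49 ± 0.033 (SD, n = 3) and 0.51 ± 0.053 (SD, n = 3), and the log2 fold change was 0.023 (standard error 0.064, 95% confidence interval -0.13 to 0.18, limma adjusted p = 0.831). The sign turned when values were centred within regions of the array, to -0.072 over its own spots and -0.030 over the same spots on all arrays. Brightness was not compared between the 3 probes, since probes bind with different efficiency.

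Across all 33001 probes tested, 4966 (15.0%) passed a limma adjusted p of 0.05, and of the 3 ribosomal protein probes 0 passed. At an unadjusted p below 0.05 there were 10768 probes (32.6%) and 0 of the 3 members. The number of probes called depended on the fit, being 1171 with a replicate block and 1630 to 3335 when 1 array was left out. The arrays of the groups did not overlap for 39.0% of all probes and for 0 of the 3 members. The median log2 fold change of the members was 0.013, beside -0.046 over all probes tested, and their largest absolute value was 0.030, beside a median absolute value of 0.18 over all probes. A smaller absolute change was found for 9.05%, 6.93% and 3.91% of all probes than for RPS18, RPL10 and RPLP1. As folds, the intervals were 0.870 to 1.103 for RPS18, 0.892 to 1.14 for RPLP1 and 0.913 to 1.13 for RPL10. A difference inside these limits was not detectable with 3 arrays a group.

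The 3 probes, like the 17 others with an accession, varied less between arrays of one group than most probes did. The residual SD between arrays was 0.044 for RPL10, 0.064 for RPS18 and 0.071 for RPLP1, while the median over all probes, nearly all with 1 spot, was 0.12. When the positions free of outliers were taken 1 spot at a time, the median residual SD was 0.054 for RPL10 over 8 positions, 0.077 for RPS18 over 10 and 0.083 for RPLP1 over 7, where the highest was 0.13. The 17 other probes with an accession, also means of 10 spots, had residual SDs of 0.036 to 0.071. The pooled SD between spots of one array was 0.071 for RPL10, 0.060 for RPS18 and 0.047 for RPLP1, which leaves an error of 0.022, 0.019 and 0.015 for a mean of 10 spots. Exposed cells gave the higher value at 6 of 10 positions for RPL10, 4 of 10 for RPLP1 and 2 of 10 for RPS18. Positions share their arrays and are no replicates of the exposure.

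Relative to the 75th percentile, the SD over the exposed arrays was larger than that over the controls for each of the 3 genes. The controls all lie in the upper row, while the exposed arrays lie in both rows. Spread between rows and spread between exposed samples can therefore not be told apart here. Relative to the control mean, Al2O3 NPs replicate 1 was at -0.13 for RPS18, -0.093 for RPLP1 and -0.025 for RPL10. Replicate 2 was at 0.042, 0.10 and 0.079 in the same order, and replicate 3 at -0.0023, 0.029 and 0.015. The mean of the 17 other probes with an accession stood at -0.091, 0.023 and 0.0083 on these 3 arrays. All 17 are scaled by the same percentile as the members. The SD over exposed arrays exceeded that over controls for 16 of these 17 probes and for all 3 members. Without scaling it did so for 9 of the 17, after quantile normalization for 10 and with scaling to the median for all 17. All 3 members kept the larger SD over exposed arrays in each of these. Scaled to the mean of the other 17, it did so for 9 of them and for 2 of the 3 members, RPL10 being at 0.033 in controls and 0.031 in exposed cells. After quantile normalization the SDs over controls and exposed arrays were 0.015 and 0.026 for RPLP1, 0.0055 and 0.019 for RPS18 and 0.035 and 0.040 for RPL10.

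Leaving out single arrays moved the estimates accordingly. Without Al2O3 NPs replicate 2 the log2 fold change was -0.0049 for RPL10 and -0.032 for RPLP1, and without replicate 1 that of RPS18 was 0.020. Within the upper row, replicate 1 alone is compared with the 3 controls. The values there were -0.025 for RPL10, -0.093 for RPLP1 and -0.13 for RPS18. They are given as effect sizes only, since the spread of a single exposed array is not measured.

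The difference between 2 of the genes within the same array does not depend on a scaling factor of the array, and it shows whether they changed unequally. The 3 pairs were compared by a two-sided exact permutation test, which cannot give a p below 0.1 with 3 arrays against 3. RPLP1 minus RPS18 was 0.075, 0.083 and 0.097 in control cells and 0.12, 0.15 and 0.12 in exposed cells, so that the groups did not overlap. The difference between the groups was 0.043 (exact p = 0.1, adjusted over the 3 pairs 0.3). Its 95% limma interval, with the spread moderated over all probes, was -0.097 to 0.18. An ordinary linear model without moderation was fitted first and gave 0.011 to 0.074, an interval that does not include 0. It rests on 6 values alone, and limma replaced it after this result was seen. The SD of this pair was 0.011 over controls and 0.016 over exposed arrays, beside a prior SD of 0.12 in limma over all probes. The width of the limma interval therefore comes largely from the other probes. Under 13 alternatives in processing the difference between the groups stayed positive but ranged from 0.0072 to 0.074. The lowest came from centring within regions over each array's own spots, the highest from centring over the same spots on all arrays. After quantile normalization it was 0.018. Groups without overlap were found for 62.1% of the 190 pairs that the 20 probes with an accession can form, so that the separation of this pair is no more than most pairs show.

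The other pairs overlapped. RPL10 minus RPS18 differed by 0.053 between the groups (exact p = 0.3, adjusted 0.45, 95% limma interval -0.099 to 0.21). Under its 13 alternatives this difference ranged from 0.011 to 0.078. RPL10 minus RPLP1 differed by 0.010 (exact p = 0.8, adjusted 0.8, 95% limma interval -0.14 to 0.16). A p above the threshold does not show that the genes responded alike, and unequal changes inside these intervals remain possible.

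**Figure D1:**
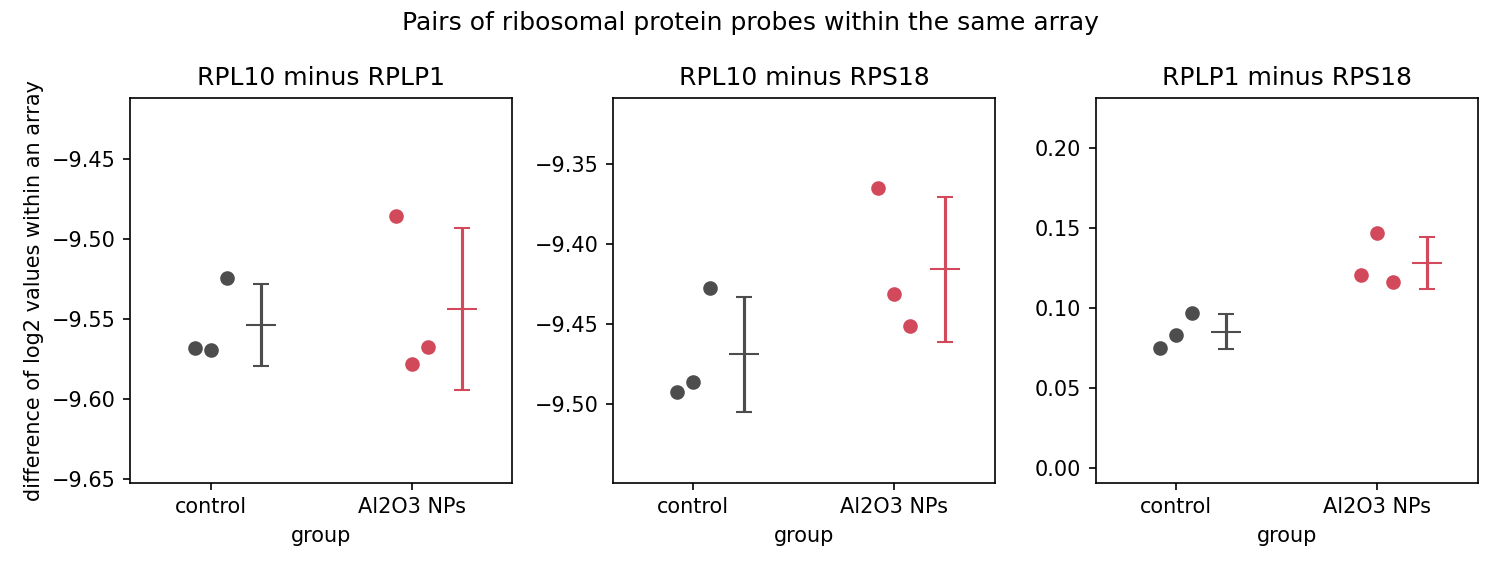
Difference of log2 values between 2 ribosomal protein probes of the same array (y axis) in control and Al2O3 NPs arrays (x axis). Points are arrays, bars the mean with SD (n = 3). RPLP1 minus RPS18 separates the groups, 0.075 to 0.097 against 0.12 to 0.15, as do 62.1% of all pairs of probes with an accession.

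Likeness of pattern was measured as the root mean square difference of log2 values over the 6 arrays after each probe was centred on its own mean, among the 20 probes with an accession. The nearest to RPS18 were COX4I1 at 0.014, RACK1 at 0.023 and RPLP1 at 0.024. The nearest to RPLP1 were ACTB at 0.020, RPS18 at 0.024 and PRMT1 at 0.028. The nearest to RPL10 were PRMT1 at 0.029, ACTB at 0.031 and RPLP1 at 0.033. RACK1 codes for a scaffold protein bound to the small subunit, ACTB for a cytoskeletal actin, COX4I1 for a subunit of cytochrome c oxidase and PRMT1 for a protein arginine methyltransferase. These values describe 6 arrays and carry no test. They are near in size to the error of 0.015 to 0.022 for a mean of 10 spots of a member, so their order may not be resolved. Among the 17 other probes the log2 fold changes ranged from -0.22 to 0.35 with a median of -0.039. PGK1, a glycolytic enzyme gene, was the 1 that passed the threshold.

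**Figure D2:**
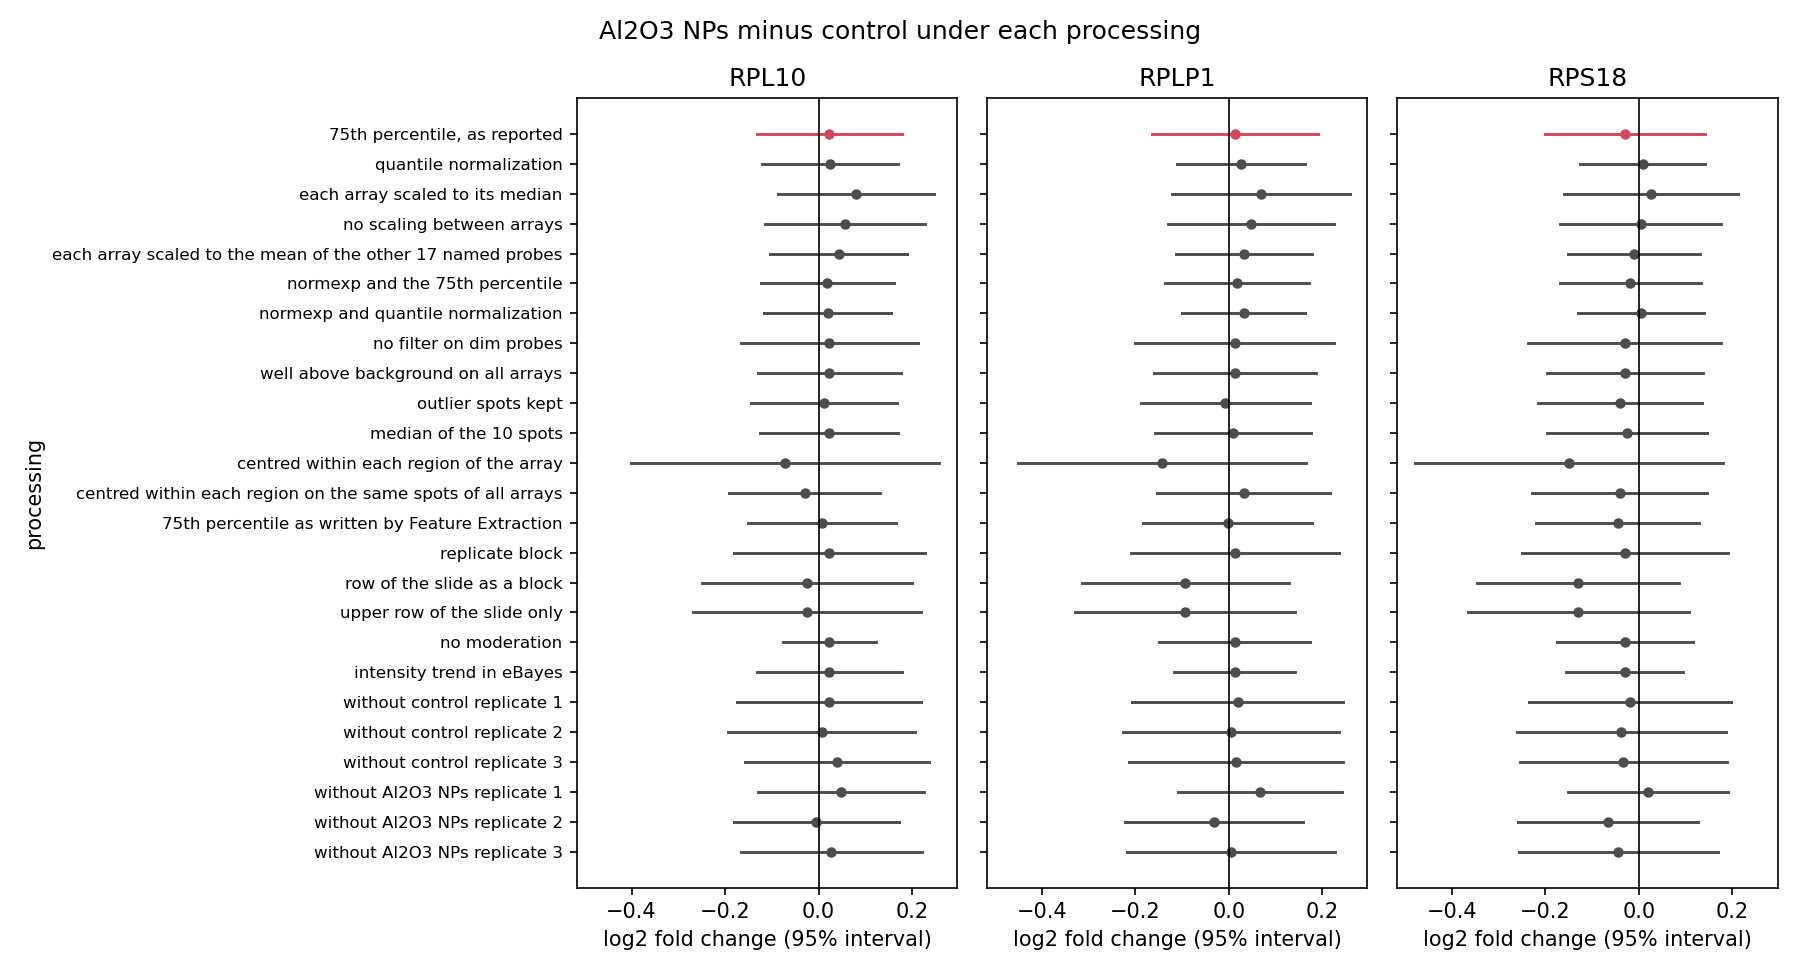
Log2 fold change, Al2O3 NPs minus control, with 95% interval (x axis) for RPL10, RPLP1 and RPS18 under the reported processing (red) and 24 alternatives (grey, y axis). The values lie between -0.15 and 0.079, every interval includes 0, and each gene takes both signs. Filters on dim probes, the replicate block, no moderation and an intensity trend in eBayes leave the estimate unchanged and cannot turn its sign. The fits by row compare a single exposed array with the controls, and their intervals are not read as a test.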

How the data were processed

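The authors deposited, for each of 6 one-colour Agilent arrays, the spot intensities of Feature Extraction 11.0.1.1, which had been corrected for background and for spatial trends. The log2 table that the authors deposited covers 58944 probes. It holds none of the 20 probes with an accession and was used only to count changed probes. The deposited spot intensities were used as log2 values minus the log2 of the 75th percentile of the array, taken over spots that are neither controls nor outliers. The 10 spots of a probe were averaged. A probe had to be well above background on 3 or more arrays and was tested with limma 3.58.1 in R 4.3.3 (lmFit, eBayes, Benjamini-Hochberg adjustment over all probes), a procedure tested on simulated data. Groups follow the sample titles. All 20 accessions matched the RefSeq table of GRCh38.p14, used for names and start windows only.

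The members and lists were chosen with earlier results of these data known. The genes named are the 3 members and, for each, the 3 probes nearest in pattern. PGK1 was named after its value was seen. Replicate numbers did not pair the arrays, and the alternatives are given in the closing section. The number of arrays limits the precision.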

Additional observations from a re-analysis of the deposited data

How the results depend on the processing

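Over 72 alternatives for the 3 genes the limma adjusted p lay between 0.434 and 0.985, and the sign differed from the reported one in 16. The row as a block and the upper row alone give the same estimate, from exposed replicate 1 against the 3 controls. RPL10 was at -0.025 in both. RPLP1 was at -0.093 in both, at -0.0071 with outlier spots kept and at -0.0023 with the percentile written by Feature Extraction. RPS18 was at 0.0081 after quantile normalization, 0.026 with scaling to the median, 0.0040 without scaling and 0.0047 after normexp with quantile normalization. Leaving out 1 array at a time gave -0.0049 to 0.047 for RPL10, -0.032 to 0.066 for RPLP1 and -0.066 to 0.020 for RPS18.

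Centring within regions of an 8 by 12 grid was planned, and was first computed over each array's own spots well above background. It gave -0.072 for RPL10, -0.14 for RPLP1, -0.15 for RPS18 and 473 changed probes. After that result was seen, the same spots were used on all arrays, which gave -0.030, 0.033, -0.041 and 4937. Both are kept. Over 8 other definitions of the percentile, tried after the data were seen, RPL10 lay between 0.0049 and 0.028, RPLP1 between -0.0051 and 0.018 and RPS18 between -0.048 and -0.025, with 4966 to 5141 changed probes.

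RPL10 minus RPLP1 was -0.0016 after quantile normalization, -0.012 after normexp with quantile normalization, -0.062 when centred on the same spots and -0.019 to 0.027 with 1 array left out. The other pairs kept their sign but not their size under 13 alternatives each. The number of changed probes was 941 without a filter, 527 with the row as a block, 0 in the upper row alone by limma (7470 at an unadjusted p below 0.05) and 1630 to 3335 with 1 array left out. In the upper row alone the residual comes from the 3 controls and the single exposed array is assumed to vary like them, so that this 0 says nothing about stability. The correlation of deviations of same-numbered arrays was -0.027, 0.056 and 0.020, so that numbers were not taken as pairs. The replicate block gave 1171 changed probes.

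The row analyses, the percentile definitions, the second centring and the limma interval of the pairs were chosen after seeing the data. The slide as a block and the comparison within a slide were planned and not run, since all 6 arrays lie on 1 scan image. The cause of these shifts was not tested.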
